A study of Gossypium hirsutum with 2 samples.

Results

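Catalase, ascorbate peroxidase and superoxide dismutase genes of Upland cotton (Gossypium hirsutum) were examined in leaves of well-watered and drought-stressed field plants. A probe set, the group of short probes that reads a transcript on an Affymetrix array, was included when the platform annotation assigned it to a single cotton gene with an alias of CAT plus a number, APX or gAPX, or an alias ending in SOD. This rule found 5 probe sets of 4 genes. The array holds 23977 plant probe sets, of which 697 were assigned to a single gene, 520 genes in all. The genes were CAT2 (LOC107943729), gAPX (LOC107927982), FeSOD (LOC107894059) and MnSOD (LOC107897935, also listed as Mn-SOD), with 2 probe sets for MnSOD and 1 for each of the others. Class III peroxidases were left out.

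Both groups were plants of the drought-tolerant cultivar Acala 1517-99, aged 9 weeks per the labels, and the leaf in the third topmost position was taken. Well-watered plants had been irrigated by furrow, and drought-stressed plants had gone without irrigation for 9 days. Each replicate joined 8 plants, and 3 field plots were sampled per treatment, but 1 array per treatment was analysed here and the labels do not say whether RNA of the plots was pooled. There is therefore no replicate error and no p-value, and every difference describes these 2 arrays, whose number limits the precision. In such whole-leaf RNA, fewer cells of a type and less RNA per cell cannot be told apart.

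Superoxide dismutases convert superoxide into hydrogen peroxide and oxygen, and catalases and ascorbate peroxidases then remove the hydrogen peroxide. Catalase works in the peroxisome, where photorespiration in green leaves releases hydrogen peroxide, and ascorbate peroxidases work in the chloroplast, the cytosol and the peroxisomal membrane with ascorbate as electron donor. Plant superoxide dismutases differ in their metal: the manganese form is mitochondrial, the iron form is found in chloroplasts, and copper/zinc forms occur in chloroplasts, cytosol and peroxisomes. Closing stomata in drought limits carbon dioxide supply, and the resulting excess of light energy is known to raise the formation of superoxide and hydrogen peroxide in leaves.

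The values are MAS5 signals, linear probe-set intensities from Affymetrix software. Both arrays had the same mean after trimming 2% from each end (250.09). Plant probe sets had a median of 75.6 in the well-watered sample and 78.3 in the drought sample. The ratio of 3-prime to 5-prime signal, a measure that follows RNA quality, was 14.1 against 4.09 for the actin control, well watered first. It was 5.80 against 10.2 for the ubq11 control and 1.83 against 1.30 for the ss1 control. The controls thus disagreed on which array had the higher ratio. For actin and ubq11, the 3-prime signal was at least 4.09 times the 5-prime signal on both arrays. Any part of RNA quality in the differences below was not tested. The leaf identity of the samples was represented by a single matching marker, the rubisco activase gene RCA1, which ranked 9 of 23977 by mean signal. Lists for guard cells, phloem and epidermis matched 0 probe sets. Of 22 trichome or fibre marker probe sets, 13 were measurable, 8 higher and 5 lower in drought leaves, and the summed signal of all 22 was 5061 and 5566. Of the 13, 3 passed 2-fold, namely E6 (log2 difference -1.23), a probe set of FLA6 (-1.03) and one of FLA14 (1.28), where 4.38% of all measurable plant probe sets did. Most of the 22 were probe sets of the FLA family. Of the other genes on the list, HOX3 (-0.64) was lower, like E6, and GHTTG1 (0.39) was higher. Another measurable probe set of FLA6 gave 0.20, and another of FLA14 gave 0.32. The part of trichome or fibre cells in the results below was not tested.

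Among the members, the 2 peroxide-removing enzymes had the brightest probe sets. CAT2, a catalase, had a signal of 13608 on the well-watered and 15764 on the drought array, ranking 52 of 23977 by mean log2 signal. The gene gAPX, whose alias denotes the glyoxysomal (peroxisomal) ascorbate peroxidase, measured 4767 and 5517 and ranked 342. Both signals were higher on the drought array, CAT2 by 15.8% and gAPX by 15.7%, which is a log2 difference of 0.21 for each.

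The superoxide dismutases under the alias rule were dimmer. The brighter MnSOD probe set read 475 with irrigation and 437 without, ranked 3722, and had a log2 difference of -0.12. FeSOD read 164 with irrigation and 123 without, ranked 8296, and had a log2 difference of -0.41, the largest among the members with measurable signal. Measurable here means a mean log2 signal at or above the median of all plant probe sets, which is a signal of 72.3. The second MnSOD probe set fell below this minimum with 35.9 and 14.3. Its log2 difference of -1.33 thus comes from a pair of dim signals, each under the 95th percentile of 51 dim reporter controls on its array (75.7 well watered, 144 drought). These controls carry sequences of common reporter and transgene constructs and serve here as a measure of background. The measurable minimum of 72.3 lies under this reporter limit on both arrays, so some measurable probe sets are at background by this measure. FeSOD lay above the reporter limit on the well-watered array and below it on the drought array, so the size of its difference is imprecise. The brightness of a probe set depends on its probes as well as on the transcript, so these ranks are not a ranking of transcript amounts.

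**Figure D1:**
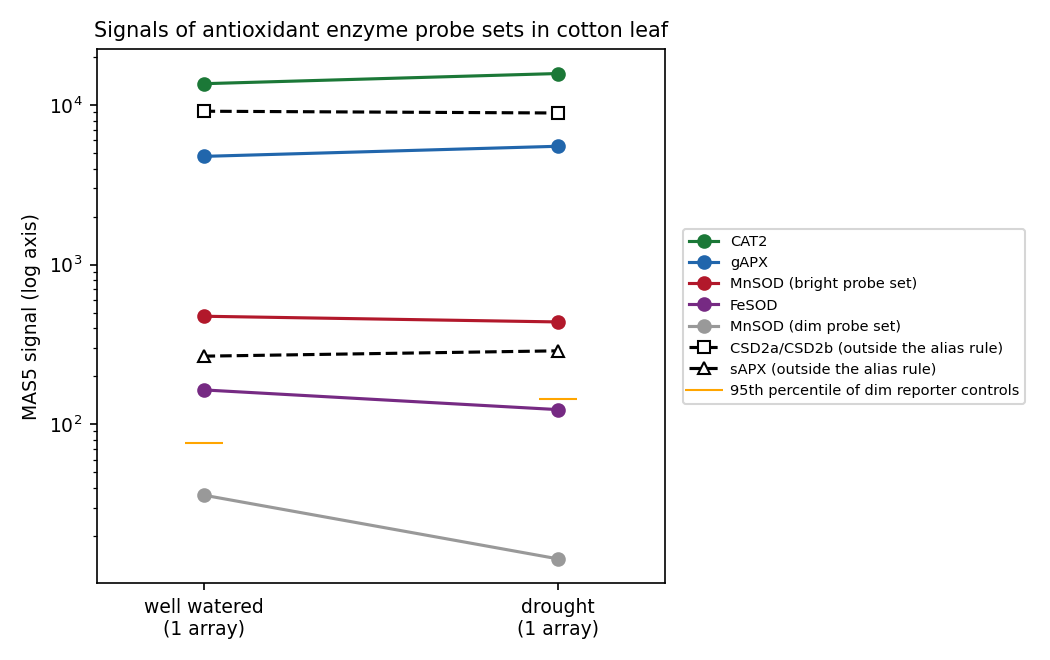
MAS5 signal (log axis) of each probe set on the well-watered and the drought array, with lines joining the values of a probe set, open symbols for enzymes outside the alias rule and orange bars for the 95th percentile among 51 dim reporter controls. CAT2 and gAPX lie far above the bars on both arrays, FeSOD lies above the bar in the well-watered sample (164 against 75.7) and below it in the drought sample (123 against 144), and the dim MnSOD probe set lies below both.

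Of the 4 measurable members, 2 were higher and 2 lower in drought leaves, and 0 reached a 2-fold difference in either direction. Among all 11989 measurable plant probe sets, 49.6% were higher by any amount, 1.82% were higher by 2-fold or more, 2.56% were lower by 2-fold or more, and 4.38% reached 2-fold in either direction. The median difference of the 4 was 0.05 on the log2 scale, beside -0.01 for all measurable plant probe sets. With only probe sets at or above the 75th percentile of signal, which include CAT2, gAPX and MnSOD, 0.4% were higher and 0.72% lower by 2-fold or more. A count of 0 among 4 does not stand apart from these shares. None of the 5 probe sets is among the 110 in the authors' deposited table of differentially expressed genes. In the authors' deposited table, signals called present ran down to 43.6 and signals called absent ran up to 235. The FeSOD signals thus lie where the ranges of these calls overlap. Of 21 signals between its values on the 2 arrays, 19 were called present. The other 2 (128.8 and 149.7) were called marginal, a call between present and absent. The table's signals were selected by its authors, and no detection call for FeSOD itself was used here.

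How far the difference of a member departs from those of equally bright probe sets was asked next, because differences on these arrays depended on signal. Each member was set beside the 200 plant probe sets nearest to it in mean log2 signal. For CAT2 these are the brightest probe sets of the array, with mean signals from 7841 to 20437, and 179 of the 200 were higher on the drought array. Their median difference was 0.17, with a 5th to 95th percentile range from -0.05 to 0.33. The value of CAT2 (0.21) thus lay 0.04 above the median. Most of the 200 were dimmer than CAT2, which ranked 52. With 100 and with 400 such probe sets, CAT2 lay 0.02 and 0.10 above their median. For gAPX the median was 0.04 (-0.32 to 0.39), and 118 of 200 were higher, which leaves gAPX 0.17 above the median. CAT2 and gAPX thus had the same difference as deposited, while the probe sets around them did not.

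The dismutases lay below the median of their surroundings. MnSOD, at -0.12 against a median of -0.04 (-0.60 to 0.42), lay -0.08 from the median of its 200 neighbours in signal. FeSOD, at -0.41 against -0.04, lay -0.37 from the median, but here the range was wide, from -1.04 to 0.66. For the dim MnSOD probe set the range was wider still, from -2.70 to 2.85. All 5 members lay inside the range between the 5th and 95th percentiles of their like-signal probe sets.

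**Figure D2:**
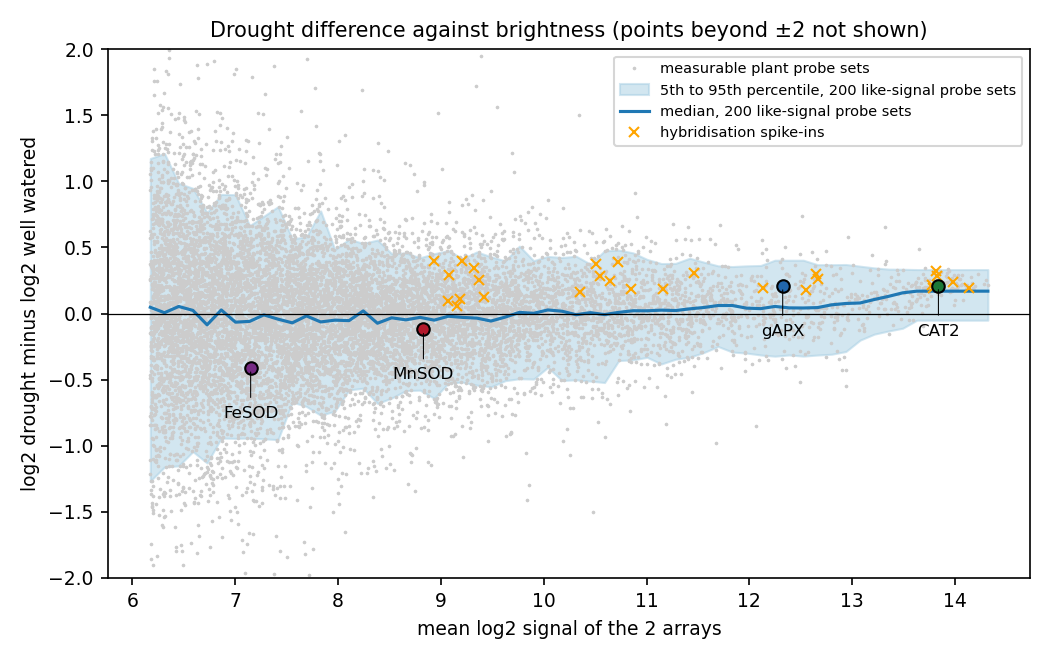
Difference between the arrays (log2 drought minus log2 well watered) against mean log2 signal for the measurable plant probe sets (grey), with the median and the 5th to 95th percentile range of 200 like-signal probe sets in blue, hybridisation spike-ins as crosses and the 4 measurable members as labelled points. The band narrows from left to right and its median rises to 0.17 at the bright end, where CAT2 lies; the spike-ins are all above 0.

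The hybridisation spike-ins offered a second reference. These are bacterial and phage transcripts (bioB, bioC, bioD and cre) that the Affymetrix protocol adds in fixed amounts to each hybridisation, read by 27 probe sets. All 27 were higher on the drought array, by 0.05 to 0.40 with a median of 0.25. The 6 cre probe sets, with well-watered signals from 12866 to 16778 that span that of CAT2, were higher by 0.19 to 0.32. The 6 bioD probe sets, with well-watered signals from 2141 to 5953 that span that of gAPX, were higher by 0.18 to 0.31. The differences of CAT2 and gAPX (both 0.21) lie within these ranges, so relative to spike-ins of like signal neither differed beyond the spread of the spike-ins. The 9 bioB probe sets, from 427 to 658 in the well-watered sample and thus around the signal of MnSOD, were higher by 0.05 to 0.40. MnSOD at -0.12 lay below all 9, but so did most plant probe sets of its brightness. Its 200 like-signal probe sets had a median of -0.04, and 86 of them were above 0. No spike-in was as dim as FeSOD.

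Because the spike-ins enter at the hybridisation, they do not follow the leaf RNA through the steps before it. Set against the median spike-in, the difference became -0.03 for CAT2, -0.04 for gAPX, -0.37 for MnSOD and -0.66 for FeSOD. On that scale 0 of 4 were higher on the drought array. Of all measurable plant probe sets, 2896 of 11989 were higher on that scale. Quantile normalization, which gives both arrays the same distribution of signals, left 0.01 for CAT2, 0.17 for gAPX, -0.08 for MnSOD and -0.38 for FeSOD. The direction of the peroxide-removing pair therefore depends on the scale. MnSOD and FeSOD were lower on each scale tried, but every scale reuses the same signals from the same arrays. Over the scalings and the pseudocount, MnSOD rose at most from -0.12 to -0.08 and FeSOD from -0.41 to -0.35. The unchanged sign therefore cannot tell whether the lower signals would recur on other arrays.

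**Figure D3:**
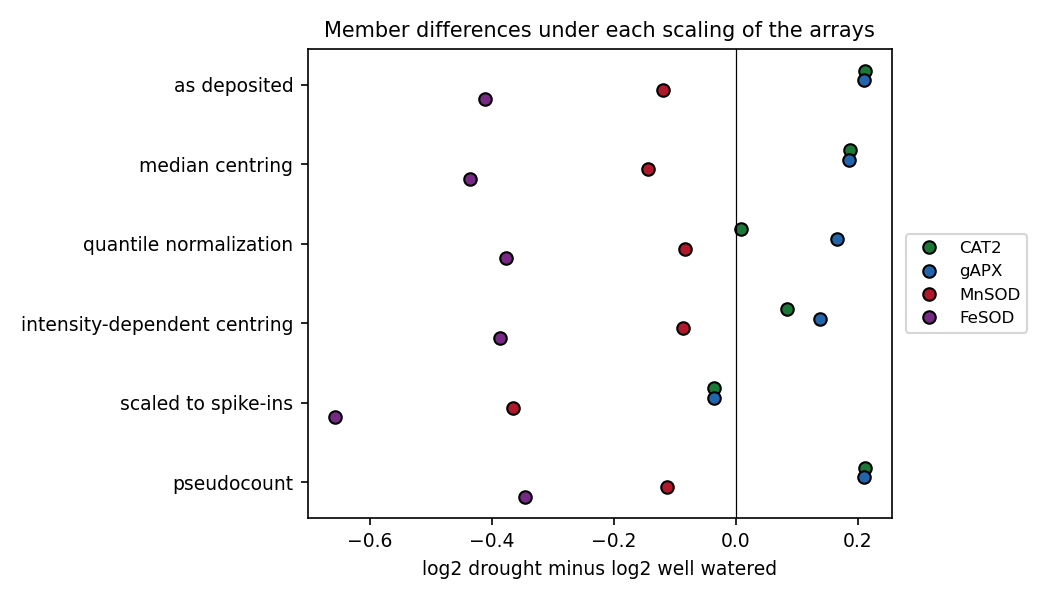
Log2 difference (drought minus well watered) of the 4 measurable members with the signals as deposited and under 4 other scalings and with a pseudocount. CAT2 and gAPX move between 0.21 and just below 0 against the spike-ins, and FeSOD stays lowest throughout, from -0.35 to -0.66.

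Differences between members do not depend on a constant scaling of either array, but they do depend on scalings that vary with signal. As deposited, the differences of CAT2 and gAPX were equal to within 0.01 on the log2 scale, and CAT2 exceeded MnSOD by 0.33. After quantile normalization the values were 0.01 for CAT2, 0.17 for gAPX and -0.08 for MnSOD. The equality was then lost and the gap to MnSOD was smaller. With the signals as measured, CAT2 exceeded FeSOD by 0.62 and MnSOD exceeded FeSOD by 0.29, but the drought signal of FeSOD lay under the reporter limit, so these gaps are imprecise. For scale, 35 pairs of measurable probe sets that are assigned to the same gene and carry the same orientation letter differed by a median of 0.31, and by up to 1.38. In the 7 of these pairs with both mean signals at 1000 or more, the median was 0.14 and the largest value 0.35. In the 28 others the median was 0.34. Such pairs can also read different transcripts or gene copies.

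The members are not equally specific. The gAPX and FeSOD probe sets end in _s_at, which by the array's naming convention marks probes shared by several transcripts, so related gene copies can contribute to their signal. The CAT2 probe set and both MnSOD probe sets end in _at. The 2 MnSOD probe sets both had lower drought signals, but the dim one adds little at its signal. Its transcript cluster holds 3 further probe sets with no gene assigned in the annotation used, looked up after the values were seen. Among these a bright one, which ends in _s_at, measured 763 and 639 (log2 difference -0.26). Another, which ends in _x_at and whose ID marks the opposite orientation, measured 654 and 839 (0.36). The third, also of the opposite orientation by its ID, was dim, with 3.7 and 10.3.

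Among 9 genes of the gene table with an alias for a catalase, an ascorbate peroxidase or a superoxide dismutase, 6 had a single-gene probe set and 3 had none, namely CAT1, APX1 and cAPX2. The genes sAPX and CSD2a/CSD2b had one but fall outside the alias rule, and were added after their values were seen. The alias of sAPX denotes the ascorbate peroxidase of the chloroplast stroma. Its signals were 267 well watered and 288 in drought, a log2 difference of 0.11, or -0.14 against the spike-ins. A second probe set of its transcript cluster with no gene assigned measured 206 and 181 (-0.19). CSD2a/CSD2b is a copper/zinc superoxide dismutase, whose namesake in Arabidopsis thaliana is the chloroplast form. It measured 9149 and 8917 (log2 difference -0.04) and ranked 167, the brightest of the dismutase probe sets. Its like-signal probe sets had a median of 0.09 (-0.18 to 0.37), from which it lay -0.13.

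Genes that feed or surround these enzymes were taken from 7 lists, of which 3 (thiol peroxidases, metal supply and photorespiration) matched 0 probe sets by alias. Of 11 probe sets in the other lists, 6 were measurable and 0 of these reached 2-fold. DHAR1, the dehydroascorbate reductase that regenerates the ascorbate used by ascorbate peroxidase, measured 1238 and 1316 (log2 difference 0.09). Of 4 glutathione transferase probe sets, 2 were measurable, with differences of 0.07 at LOC107948407 and -0.12 at LOC107889738. The dim ones, both of LOC107889738, had drought signals of 4.5 and 2.5 and differences of -2.68 and -3.99. The latter lay below its like-signal range, which began at -2.94. Of 5 probe sets on the list of superoxide and peroxide sources, 2 were measurable. The germin-like protein gene Glp1, of a family in which some proteins release hydrogen peroxide, measured 5160 and 6010, a difference of 0.22 like that of the equally bright gAPX. GOX, an alias that more than a single kind of oxidase carries, measured 693 and 589 (-0.23). The 3 probe sets of ACX, named for the acyl-CoA oxidase that makes hydrogen peroxide in peroxisomes, had mean signals below the measurable minimum. Their signals ran from 10.9 to 81.1, and all 3 were lower on the drought array (-0.49, -1.55 and -1.585). Each lay inside its like-signal range, which began at -1.26, -1.70 and -2.81 in the same order. RCA1, the only match for photosynthesis, measured 16617 and 20148 (0.28), beside 0.21 for the similarly bright CAT2. Against the spike-ins RCA1 was higher by 0.03, while DHAR1 (-0.16), Glp1 (-0.03), GOX (-0.48) and both measurable glutathione transferase probe sets were lower.

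**Figure D4:**
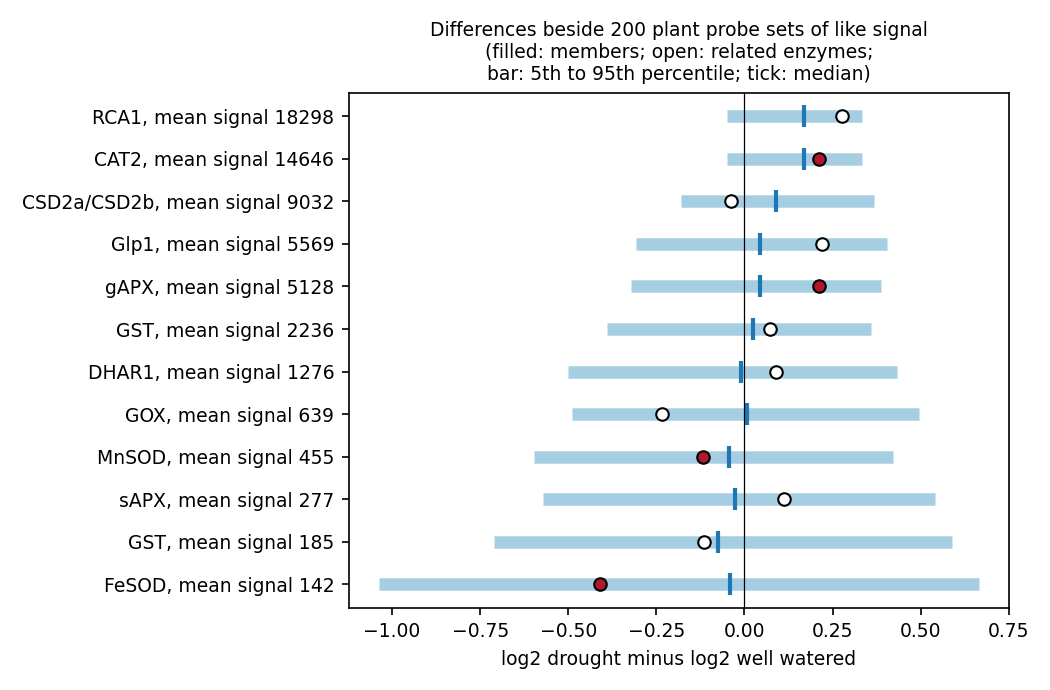
Log2 difference (drought minus well watered) of each measurable member (filled) and related enzyme (open), ordered by mean signal, over the 5th to 95th percentile (bar) and median (tick) of 200 plant probe sets of like signal. Every point lies inside its bar, and the bars widen from RCA1 and CAT2 at the top to FeSOD at the bottom.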

How the data were processed

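Intensity values were deposited by the authors as linear MAS5 signals for which the submitters' processing notes name GCOS and MAS5; their versions and the scaling target were not given in the sources used here. A deposited table of 110 probe sets adds detection p-values, per the file headers, and how it was selected is not stated. Samples were grouped by title. Differences were taken as log2 of the drought signal less log2 of the well-watered signal, without a pseudocount. The 155 control probe sets were left out of plant counts. No test was run with 1 array per group. Gene aliases were looked up by the annotation's gene identifiers in a RefSeq gene table; the array files name no assembly, so no coordinates are given. The members and lists were chosen with earlier results of these data known. All members were named, and of each list up to 6 probe sets by brightness. Calculations used Python 3.11.15, pandas 2.3.3 and statsmodels 0.14.6 and were tested on simulated data. Alternatives were other scalings, a pseudocount at the 25th percentile of plant signals (26.4), other filters and thresholds, and other like-signal references.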

Additional observations from a re-analysis of the deposited data

How the results depend on the processing

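No paired analysis was possible because each group has 1 array. A value was treated as moved when it changed by more than 0.26 on the log2 scale, the robust SD per probe set in 60 same-gene pairs, and a count when it changed by more than 1.5 times. Under these limits 75 recomputed values stayed and 22 moved. The limit exceeds the differences of CAT2, gAPX and the brighter MnSOD probe set and the constant shift of the spike-in scaling, so it says nothing about their stability. Over the 4 other scalings and the pseudocount CAT2 ran from -0.03 to 0.21, gAPX from -0.04 to 0.21, MnSOD from -0.37 to -0.08 and FeSOD from -0.66 to -0.35. The count of members higher in drought went from 2 to 0 against the spike-ins, and to 1 of 2 without probe sets ending in _x_at or _s_at. With no filter, 1 of 5 members passed 2-fold, the dim MnSOD probe set. Its difference was -0.61 with the pseudocount, and relative to like-signal probe sets it went from -1.03 to -0.76 with 100 of them and to -1.38 with those designed from Gossypium hirsutum. The cause of these shifts was not tested. Plant probe sets past 2-fold, 218 higher and 307 lower as deposited, numbered 102 and 628 against the spike-ins, and 110 and 178 with the pseudocount, each of 11989. Other filters change the number of probe sets: 3004 and 2838 of 23977 with no filter, 24 and 43 of 5995 at or above the 75th percentile, 79 and 127 of 10690 with a filter on both arrays, and 106 and 129 of 5897 without _x_at and _s_at. The last are 1.80% and 2.19%, beside 1.82% and 2.56% as deposited. At 1.5-fold they were 878 and 1086, and at 3-fold 31 and 51. Low signal limits FeSOD and the dim MnSOD probe set.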
